A study of Mus musculus with 6 samples.

Results

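The 10 immediate early genes Fos, Fosb, Jun, Junb, Egr1, Ier2, Ier3, Dusp1, Myc and Gadd45b were followed in RAW 264.7 cells, a mouse macrophage line, cultured for 3 days on CaP-coated zinc alloys (CaP, calcium phosphate). They were picked by gene name from the 54532 genes counted, and all 10 passed the filter on low counts, which left 13156 genes for testing. The 3 groups were CaP Zn0.8Mn0.1Li (zinc with manganese and lithium), CaP Zn0.8Mn (zinc with manganese) and CaP Zn (zinc alone), each with 2 libraries of polyadenylated RNA. All groups carried the coating and zinc, so none shows these cells without metal, and every library comes from 1 cell line, sampled at 1 time. The labels do not say whether the 2 libraries of an alloy came from separate cultures. P-values therefore reflect only how far apart these libraries lie, part of which may be technical.

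Immediate early genes are switched on within minutes of a stimulus without new protein synthesis, when MAP kinases activate factors such as SRF with its ELK partners and CREB, and when NF-kB enters the nucleus. Their mRNAs are usually short-lived, often through AU-rich stretches in the 3′ untranslated region (UTR) that decay factors such as tristetraprolin bind. In macrophages, microbial products, cytokines, adhesion and stress induce them, and the products include transcription factors (the FOS and JUN proteins of AP-1, EGR1, MYC) and brakes on signaling (DUSP1).

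Libraries held 14944070 to 17709290 counts, and levels are given as CPM, counts scaled to library size, with TMM factors, in which the floor of 3 counts lay between 0.161 and 0.198 CPM. The macrophage label was checked on 10 marker genes, all of which reached 5 CPM (marker values are CPM without TMM factors). Of 34 markers of other cell types (fibroblast or osteoblast, epithelial, endothelial, lymphoid, neutrophil or mast cell), 18 were at 0 in every library, the 5 epithelial ones among them, and 1 reached 5 CPM, Runx2, an osteoblast transcription factor, at 7.23 CPM in CaP Zn0.8Mn replicate 1 and 13.2 to 16.8 CPM in the other 5 libraries. The first CaP Zn0.8Mn library (replicate 1) was unlike the rest. Its log2 CPM correlated with theirs at r = 0.901 to 0.920 across genes, against 0.988 to 0.991 among the other 5 (genes are not independent replicates), and 7.88% of its counts were mitochondrial, where the others had 1.82% to 2.15%. Of the 10 macrophage markers 5 were above and 5 below all other libraries there. Their sum was 9931 CPM, against 12010 to 16710 CPM in the other 5, mainly through the lysozyme gene Lyz2 (5936 CPM against 9643 to 14150), while the receptor gene Csf1r read 1619 CPM against 311 to 380. The members' comparisons are given with and without this library.

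None of the 10 genes differed between alloys past the threshold, an adjusted p under 0.05 with the quasi-likelihood test of edgeR over all genes. This held in the 3 comparisons with all 6 libraries and again without CaP Zn0.8Mn replicate 1, and DESeq2 and limma-voom also called 0 of 10 in each of these settings. With 6 libraries edgeR called 0% of all tested genes in each comparison. At an unadjusted p under 0.05 it passed 0 of the 10 members in each, beside 0.22% of all genes for CaP Zn0.8Mn0.1Li relative to CaP Zn, 1.57% for CaP Zn0.8Mn relative to CaP Zn and 2.4% for CaP Zn0.8Mn0.1Li relative to CaP Zn0.8Mn. On the 5 libraries without CaP Zn0.8Mn replicate 1 it called 0%, 0.0152% and 0.0152% of all genes in the same order of comparisons. The unadjusted counts among members were then 1 (Fos), 0 and 1 (Myc), beside 5.02%, 4.33% and 3.16% of all genes. The comparisons share libraries, so their values for a gene are not independent.

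The members' log2 fold changes had a median of 0.22 for CaP Zn0.8Mn0.1Li relative to CaP Zn with all 6 libraries, where 7 of 10 were above 0, as were 50% of all genes. The median was -0.50 for CaP Zn0.8Mn relative to CaP Zn, where 3 of 10 were above 0, against 50.5% of all genes. It was 0.69 for CaP Zn0.8Mn0.1Li relative to CaP Zn0.8Mn, where 8 of 10 were above 0, against 49.9%. Leaving out CaP Zn0.8Mn replicate 1 gave medians of 0.22, -0.0027 and 0.16 in the same order of comparisons, with 7, 5 and 8 of 10 above 0, beside 50%, 48.2% and 49.6% of all genes, so both differences that involve CaP Zn0.8Mn were smaller without that library. Without CaP Zn replicate 1 instead, the median for CaP Zn0.8Mn0.1Li relative to CaP Zn was -0.038, and without CaP Zn replicate 2 it was 0.42. For CaP Zn0.8Mn relative to CaP Zn it was -0.16 without CaP Zn replicate 2. Without CaP Zn0.8Mn replicate 2, which leaves the library that stands apart as the alloy's only one, the medians were -1.65 for CaP Zn0.8Mn relative to CaP Zn and 1.88 for CaP Zn0.8Mn0.1Li relative to CaP Zn0.8Mn.

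**Figure D1:**
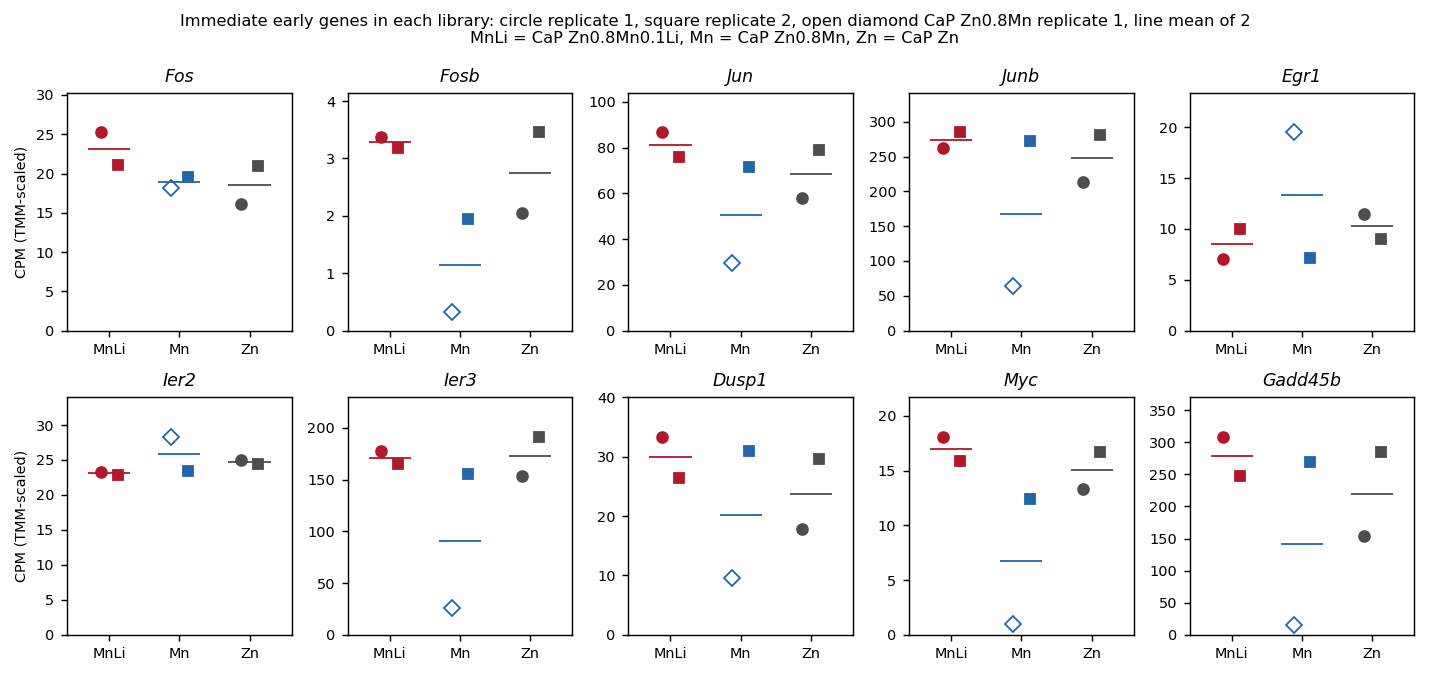
Level of each gene in CPM (vertical axis, from 0) in the 2 libraries of CaP Zn0.8Mn0.1Li, CaP Zn0.8Mn and CaP Zn, with a line at the mean of 2 and CaP Zn0.8Mn replicate 1 as an open diamond. The diamond lies below the other 5 points for 7 genes, within them for Fos and above them for Ier2 and Egr1.

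**Figure D2:**
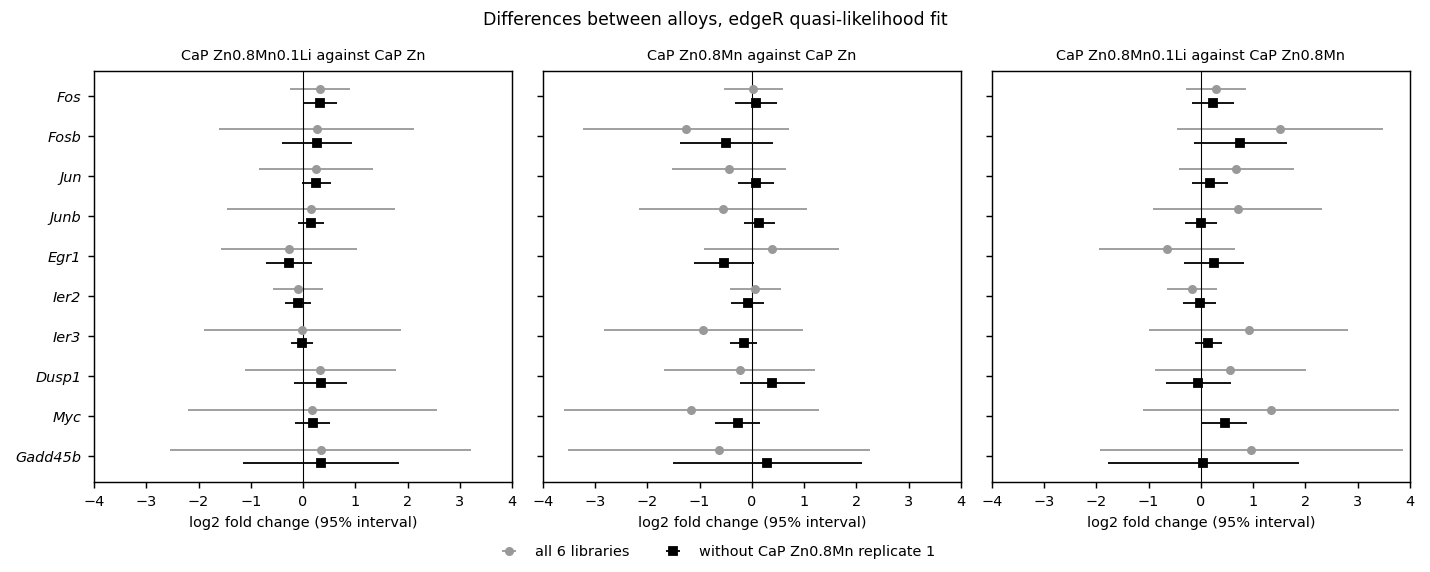
Log2 fold change of each gene with its 95% interval in the 3 comparisons, with all 6 libraries (grey circles) and without CaP Zn0.8Mn replicate 1 (black squares). The grey intervals all include 0, and without that library they are narrower, with Fos (0.0008 to 0.65) and Myc (0.022 to 0.89) excluding 0 in 1 comparison each before adjustment.

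Among the AP-1 genes, Fos (ENSMUSG00000021250, chr12:85473890-85477273, GRCm38, plus strand) encodes the FOS protein, which binds DNA as a partner of JUN proteins. It read 25.2 and 21.0 CPM on CaP Zn0.8Mn0.1Li, 18.2 and 19.6 CPM on CaP Zn0.8Mn and 16.1 and 20.9 CPM on CaP Zn. Both CaP Zn0.8Mn0.1Li libraries were above all other libraries, by a small margin over CaP Zn replicate 2. The log2 fold change of CaP Zn0.8Mn0.1Li over CaP Zn was 0.32 (SE 0.23, unadjusted p = 0.213, adjusted p = 1) with 6 libraries. It was 0.33 (SE 0.15, unadjusted p = 0.0495, adjusted p = 0.967) without CaP Zn0.8Mn replicate 1. Fos was the 1 member whose CaP Zn0.8Mn0.1Li libraries both lay above both CaP Zn libraries, beside 16.7% of all genes, and Ier2 the 1 member with both below, beside 16.8%.

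Fosb (ENSMUSG00000003545, chr7:19302696-19310051, minus strand), a paralog of Fos, was the least abundant member. It read 3.38 and 3.18 CPM on CaP Zn0.8Mn0.1Li, 0.330 and 1.94 CPM on CaP Zn0.8Mn and 2.04 and 3.45 CPM on CaP Zn. Both CaP Zn0.8Mn libraries were below the other 4, and replicate 1 rests on 5 counts. Relative to CaP Zn0.8Mn, the log2 fold change on CaP Zn0.8Mn0.1Li was 1.52 (SE 0.79, adjusted p = 0.680), and 0.76 (SE 0.42, adjusted p = 1.00) without replicate 1.

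Jun (ENSMUSG00000052684, chr4:95049034-95052222, minus strand), whose protein pairs with FOS or with itself, read 86.7 and 76.0 CPM on CaP Zn0.8Mn0.1Li, 29.5 and 71.8 CPM on CaP Zn0.8Mn and 58.0 and 78.8 CPM on CaP Zn. Junb (ENSMUSG00000052837, chr8:84974484-84978718, minus strand), a JUN protein that can oppose JUN at some promoters, read 263 and 285 CPM on CaP Zn0.8Mn0.1Li, 63.4 and 273 CPM on CaP Zn0.8Mn and 213 and 282 CPM on CaP Zn. In both genes CaP Zn0.8Mn replicate 1 was the lowest library, CaP Zn replicate 1 the next, and the other 4 lay close together. With 6 libraries the log2 fold change of CaP Zn0.8Mn0.1Li over CaP Zn was 0.25 for Jun (95% interval -0.83 to 1.34) and 0.15 for Junb (-1.46 to 1.75), both at an adjusted p of 1. Leaving that library out, the log2 fold change of CaP Zn0.8Mn0.1Li over CaP Zn was 0.25 for Jun (95% interval -0.027 to 0.53, adjusted p = 0.967) and 0.15 for Junb (-0.099 to 0.39, adjusted p = 0.982). Junb shares 351 bases with the opposite-strand gene Prdx2, which held 2979 to 5151 counts, and Jun shares 689 bases with the antisense gene Junos, which held 12 to 24. Whether the counting used strand is not given in the sources used here, so reads in the shared bases may belong to either gene.

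Levels per length, as deposited FPKM, show how the AP-1 mRNAs were composed. Junb made up 45.3% of the summed FPKM of Fos, Fosb, Fosl1, Fosl2, Jun, Junb and Jund in CaP Zn0.8Mn replicate 1, and 58.0% to 61.1% in the other 5 libraries. The Fos share was 12.7% in CaP Zn0.8Mn replicate 1 and 4.29% to 5.45% in the others, while the sum of all 7 mRNAs was 59.2 FPKM there and 155 to 206 FPKM elsewhere. Fos itself, at 7.53 FPKM, was within the 6.78 to 10.7 FPKM of the other libraries, so its larger share went with the lower levels of Junb, Jun and Jund. CaP Zn replicate 1 had the lowest sum of the other 5, 155 FPKM, with a Junb share of 59.0%, inside the range of the rest. The ratio of Junb to Jun FPKM was 2.97 in CaP Zn0.8Mn replicate 1 and 4.20 to 5.27 in the other 5.

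**Figure D3:**
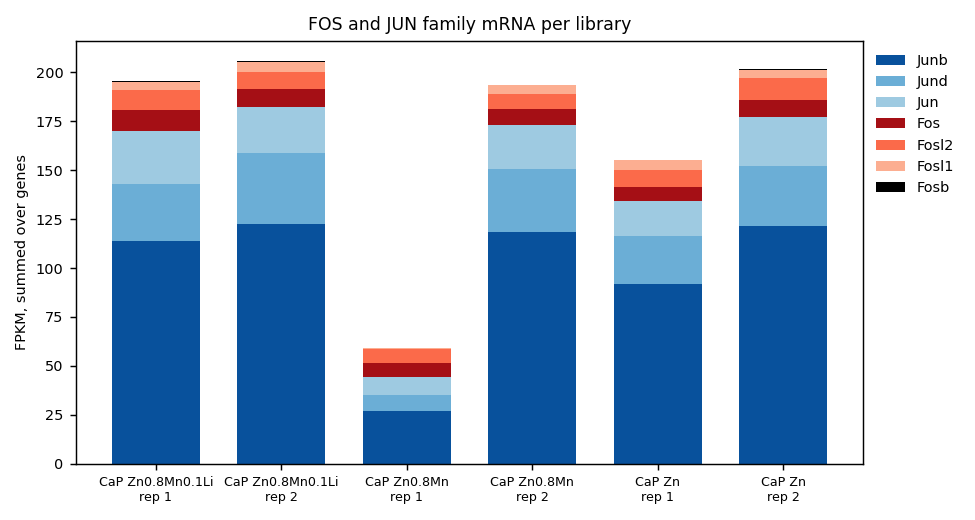
FPKM of the 7 FOS and JUN family mRNAs, stacked, in each of the 6 libraries. The stack is 59.2 FPKM in CaP Zn0.8Mn replicate 1 and 155 to 206 FPKM in the others, with Junb (dark blue, at the base) as the largest part of every stack.

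Egr1 (ENSMUSG00000038418, chr18:34859823-34864984, plus strand), a zinc finger transcription factor, ran against most members. It read 7.0 and 10.0 CPM on CaP Zn0.8Mn0.1Li, 19.5 and 7.11 CPM on CaP Zn0.8Mn and 11.4 and 9.02 CPM on CaP Zn, with CaP Zn0.8Mn replicate 1 the highest library. The log2 fold change of CaP Zn0.8Mn over CaP Zn was 0.38 (SE 0.52, adjusted p = 0.781) with 6 libraries and -0.53 (SE 0.27, adjusted p = 0.967) without that library. The related genes Egr2 and Egr3, named here after their values were seen, were also highest there. Egr2 read 17.2 CPM in CaP Zn0.8Mn replicate 1 and 2.58 to 4.83 CPM in the other 5. Egr3 read 17.8 CPM, from 270 counts, against 0.320 to 0.970 CPM, from 5 to 15 counts. Nab1 and Nab2, also named after their values were seen, encode corepressors of EGR proteins and read 113 and 13.9 CPM in that library, against 61.6 to 69.7 and 17.2 to 18.8 CPM.

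Myc (ENSMUSG00000022346, chr15:61985391-61990374, plus strand), which drives genes of ribosome production and growth, read 18.1 and 15.9 CPM on CaP Zn0.8Mn0.1Li, 0.991 and 12.4 CPM on CaP Zn0.8Mn and 13.3 and 16.7 CPM on CaP Zn. Both CaP Zn0.8Mn libraries were below the other 4, replicate 2 by little. Relative to CaP Zn0.8Mn, Myc on CaP Zn0.8Mn0.1Li had a log2 fold change of 1.34 (SE 0.98, unadjusted p = 0.223, adjusted p = 0.680) with 6 libraries and 0.45 (SE 0.20, unadjusted p = 0.0405, adjusted p = 1.00) without replicate 1. Its paralog Mycn read 688 CPM in CaP Zn0.8Mn replicate 1, inside the 670 to 816 CPM of the other 5 libraries. Of 25 known MYC targets, all tested, edgeR called none in any comparison, beside 0% to 0.0152% of all genes. In CaP Zn0.8Mn replicate 1, 18 of the 25 were below all other 5 libraries and 5 above all, beside 41.9% and 42% of all genes. Over 2-fold below the mean of the other 5 were 4 (16%), and 0 were over 2-fold above, beside 18.2% and 15.4% of all genes. The polyamine synthesis gene Odc1, the target farthest below that mean, read 1218 and 1214 CPM on CaP Zn0.8Mn0.1Li, 314 and 1309 CPM on CaP Zn0.8Mn and 981 and 1070 CPM on CaP Zn.

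Ier2 (ENSMUSG00000053560, chr8:84661331-84662852, minus strand), a nuclear protein induced by serum, was the steadiest member. It read 23.3 and 22.9 CPM on CaP Zn0.8Mn0.1Li, 28.4 and 23.4 CPM on CaP Zn0.8Mn and 25 and 24.4 CPM on CaP Zn. Setting CaP Zn0.8Mn replicate 1 aside, the highest library was 1.09-fold above the lowest, against 1.24-fold to 2.0-fold for the other 9 members. The 95% interval of CaP Zn0.8Mn0.1Li over CaP Zn was then -0.35 to 0.16 on the log2 scale. Ier3 (ENSMUSG00000003541, chr17:35821684-35822923, plus strand), an NF-kB target that bears on cell survival, read 177 and 165 CPM on CaP Zn0.8Mn0.1Li, 25.8 and 155 CPM on CaP Zn0.8Mn and 154 and 192 CPM on CaP Zn. Its CaP Zn0.8Mn replicate 1 was far below the rest, which lay close together. For CaP Zn0.8Mn0.1Li over CaP Zn the log2 fold change was -0.014 with 6 libraries (95% interval -1.90 to 1.87, adjusted p = 1) and -0.013 without CaP Zn0.8Mn replicate 1 (-0.22 to 0.20, adjusted p = 0.998).

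Dusp1 (ENSMUSG00000024190, chr17:26505590-26508519, minus strand) encodes a phosphatase that inactivates the MAP kinases p38 and JNK and limits inflammatory output in macrophages. It read 33.4 and 26.4 CPM on CaP Zn0.8Mn0.1Li, 9.52 and 30.9 CPM on CaP Zn0.8Mn and 17.9 and 29.6 CPM on CaP Zn. The 4 higher libraries included 1 of CaP Zn and 1 of CaP Zn0.8Mn, so the alloys overlapped. The log2 fold change of CaP Zn0.8Mn0.1Li over CaP Zn was 0.33 (SE 0.58, adjusted p = 1), and 0.34 (SE 0.22, adjusted p = 0.982) without CaP Zn0.8Mn replicate 1.

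Gadd45b (ENSMUSG00000015312, chr10:80930073-80932204, plus strand), a stress-induced regulator of MAP kinase signaling and survival, varied most. It read 309 and 247 CPM on CaP Zn0.8Mn0.1Li, 14.7 and 269 CPM on CaP Zn0.8Mn and 154 and 284 CPM on CaP Zn. CaP Zn0.8Mn replicate 1 was the lowest library and CaP Zn replicate 1 the next. For CaP Zn0.8Mn over CaP Zn the log2 fold change was -0.63 (SE 1.15, adjusted p = 0.827), and 0.30 (SE 0.51, adjusted p = 0.975) without CaP Zn0.8Mn replicate 1. Even without that library the 95% interval of CaP Zn0.8Mn0.1Li over CaP Zn ran from -1.1 to 1.8, so neither a 2-fold fall nor a 2-fold rise lay outside it.

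Per length, the members ranked from Gadd45b (median 169 FPKM over the 5 libraries other than CaP Zn0.8Mn replicate 1) and Ier3 (144) through Junb (118), Jun (23.6), Ier2 (15.3), Dusp1 (10.9), Fos (8.84), Myc (5.80) and Egr1 (2.0) to Fosb (0.505 FPKM). Neighbours in that order whose ranges overlapped were Gadd45b (96.1 to 193 FPKM) with Ier3 (134 to 168), and Dusp1 (6.57 to 12.3) with Fos (6.78 to 10.7). The ranges of all other neighbours were apart in these 5 libraries.

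For CaP Zn0.8Mn relative to CaP Zn with 6 libraries, the libraries did not overlap in 2 members, Fosb and Myc, both lower on CaP Zn0.8Mn, beside 12.8% of all genes lower and 12.5% higher. For CaP Zn0.8Mn0.1Li relative to CaP Zn0.8Mn they did not overlap in 6: Fos, Fosb, Jun, Ier3 and Myc were higher on CaP Zn0.8Mn0.1Li, beside 17.1% of all genes, and Ier2 was lower, beside 17.5%. Without CaP Zn0.8Mn replicate 1 a single CaP Zn0.8Mn library is set against 2, and 32% of all genes were higher and 32.8% lower than both CaP Zn libraries there. Among members, Dusp1 was higher and Fosb, Egr1, Ier2 and Myc were lower. Against that library both CaP Zn0.8Mn0.1Li libraries were higher in 33.5% of all genes and lower in 34.4%. The same 6 members were apart in the same directions, as had to be, since leaving out a library cannot make separate groups overlap. That also holds for Fosb and Myc relative to CaP Zn, so neither result is a repeat.

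In CaP Zn0.8Mn replicate 1, 7 of the 10 members were below all other 5 libraries, where 41.9% of all genes were, and all 7 were over 2-fold below the mean of the other 5, where 18.2% of all genes were. Gadd45b was 17.2-fold lower than that mean (14.7 CPM against 253 ± 59.4 CPM, SD, n = 5 libraries) and Myc 15.4-fold lower (0.991 CPM, 15 counts, against 15.3 ± 2.37 CPM). Fosb was 8.47-fold lower, Ier3 6.52-fold, Junb 4.15-fold, Dusp1 2.90-fold and Jun 2.51-fold. Fos, at 0.883 times the mean, was within the range of the others. Ier2, at 1.19 times the mean, and Egr1, at 2.19 times, were above all 5, where 42% of all genes were. This is 1 library with no replicate check. CaP Zn0.8Mn replicate 2 was below both other alloys only for Fosb and Myc, by less than replicate 1. With cells measured in bulk, fewer responding cells and less RNA per cell cannot be told apart. The part of its higher mitochondrial share in these values was not tested.

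The upstream regions of 4 members are shown: Dusp1, Ier3 and Gadd45b, which were lowest in CaP Zn0.8Mn replicate 1, and Fos, which was not. Fos, Dusp1 and Ier3 carry NF-kB or CREB motifs, and Gadd45b carries neither. Fosb and Junb, also lowest in that library, carry such motifs too and are described but not shown. Of the 10 members 7 matched the RefSeq promoter table (GRCm38.p6), and Egr1, Ier2 and Myc had no entry. The 250 bases before the RefSeq start of Fos (chr12:85473640-85473889, plus strand), Dusp1 (chr17:26508473-26508722, minus strand), Ier3 (chr17:35821463-35821712, plus strand) and Gadd45b (chr10:80929841-80930090, plus strand) read as follows, with capitals on NF-kB motifs (Fos and Ier3), on the CREB motif TGACGTCA and its 5-base core TGACG (Fos and Dusp1), and on the TATA motif TATAAA (Fos and Gadd45b).
Fos: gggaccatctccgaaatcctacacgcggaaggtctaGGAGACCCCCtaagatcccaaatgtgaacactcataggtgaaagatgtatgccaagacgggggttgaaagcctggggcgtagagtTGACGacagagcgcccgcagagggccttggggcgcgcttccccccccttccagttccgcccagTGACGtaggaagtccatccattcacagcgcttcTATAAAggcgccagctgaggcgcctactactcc
Dusp1: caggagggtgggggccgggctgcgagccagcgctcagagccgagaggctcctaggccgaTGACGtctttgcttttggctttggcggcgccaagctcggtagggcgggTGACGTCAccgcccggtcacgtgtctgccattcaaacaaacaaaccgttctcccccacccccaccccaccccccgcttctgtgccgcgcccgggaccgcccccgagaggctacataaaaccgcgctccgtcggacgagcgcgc
Ier3: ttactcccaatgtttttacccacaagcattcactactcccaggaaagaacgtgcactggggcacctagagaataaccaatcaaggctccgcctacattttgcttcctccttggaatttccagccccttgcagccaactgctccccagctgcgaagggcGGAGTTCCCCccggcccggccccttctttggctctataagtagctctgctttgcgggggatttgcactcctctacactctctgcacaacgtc
Gadd45b: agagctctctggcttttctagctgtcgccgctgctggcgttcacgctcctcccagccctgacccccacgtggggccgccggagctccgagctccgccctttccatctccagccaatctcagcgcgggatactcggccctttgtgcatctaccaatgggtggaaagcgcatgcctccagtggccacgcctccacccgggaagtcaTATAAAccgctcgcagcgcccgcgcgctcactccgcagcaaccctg
Motifs were searched on both strands. TGACGTCA was in 1.55% of 32851 promoters, its core in 17.8%, the NF-kB motif in 3.9%, the TATA motif in 12.4% and the CArG box of SRF in 1.47%. No CArG box was found in the 250 bases of any of the 7 matched members, and bases farther upstream were not searched. The core overlaps the full CREB motif. In Fos, the NF-kB motif lay 214 to 205 bases before the start, the cores at 129 to 125 and 66 to 62, and the TATA motif at 33 to 28. In Dusp1 the full CREB motif lay 143 to 136 bases before the start, in Ier3 the NF-kB motif at 92 to 83, and in Gadd45b the TATA motif at 46 to 41. Of the other matched members, all lowest in that library, Fosb held the NF-kB motif at 188 to 179 and a core at 60 to 56, Junb held a core at 106 to 102, and Jun held none of these motifs. A match is only a description of letters in this window.

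AU-rich motifs in the 3′ UTR mark many short-lived mRNAs and were counted in 1 GENCODE M21 transcript per gene. ATTTA occurred 5 times in Ier3, 4 times in Fos, Jun and Dusp1, 2 times in Junb, Egr1 and Myc, 1 time in Fosb and not at all in Ier2 and Gadd45b. The share of genes with at least as many was taken among those with a 3′ UTR of similar length (within 20%). It was 3.42% for Ier3, 9.51% for Dusp1 and 12.2% for Fos. The share was 21.1% for Myc, 22.9% for Junb, 26% for Jun, 55.9% for Egr1 and 93.2% for Fosb. The longer motif TTATTTATT occurred 2 times in Dusp1 and 1 time in Fos, where 3.92% and 4.33% of genes with UTRs of like length held it. Windows of 30 bases are shown for these and for Myc, with ATTTA and TTATTTATT in capitals: Fos at chr12:85477102-85477131 (plus strand), Dusp1 at chr17:26506157-26506186 (minus strand), Ier3 at chr17:35822485-35822514 (plus strand) and Myc at chr15:61990135-61990164 (plus strand).
Fos: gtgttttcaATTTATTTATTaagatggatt
Dusp1: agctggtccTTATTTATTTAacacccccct
Ier3: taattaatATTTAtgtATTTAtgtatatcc
Myc: taacagatttgtATTTAattgtttttttaa
In CaP Zn0.8Mn replicate 1, Gadd45b, with no ATTTA, was the farthest below the other libraries, and Fos, with 4, was within their range. Ier3, with 5, was 6.52-fold below the mean of the other libraries, and Ier2, with none, was above all of them. Whether the motifs bear on these levels was not tested.

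The 2 CaP Zn libraries also differed across the members. CaP Zn replicate 1 was below replicate 2 for 8 of 10 members, against 50.06% of all genes, with a median log2 difference of -0.39, against -0.00048 for all genes. The difference was -0.88 for Gadd45b, -0.76 for Fosb and -0.73 for Dusp1, while Egr1 (0.34) and Ier2 (0.037) were above. Among the 5 libraries other than CaP Zn0.8Mn replicate 1, CaP Zn replicate 1 was the lowest for 6 members, Fos, Jun, Junb, Ier3, Dusp1 and Gadd45b. It was the highest for Egr1 and Ier2. On CaP Zn0.8Mn, replicate 1 was likewise lower for the same 8 members and higher for Egr1 and Ier2. Whether replicate numbers pair libraries across alloys is not known here. The CaP Zn0.8Mn0.1Li libraries differed less, by -0.52 (Egr1) to 0.34 (Dusp1), with replicate 1 lower for 2 members, Junb and Egr1. Mitochondrial counts were 2.06% and 2.05% in the CaP Zn libraries, so that share did not differ between them as it did on CaP Zn0.8Mn. No test was made of these differences, since each is between single libraries.

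**Figure D4:**
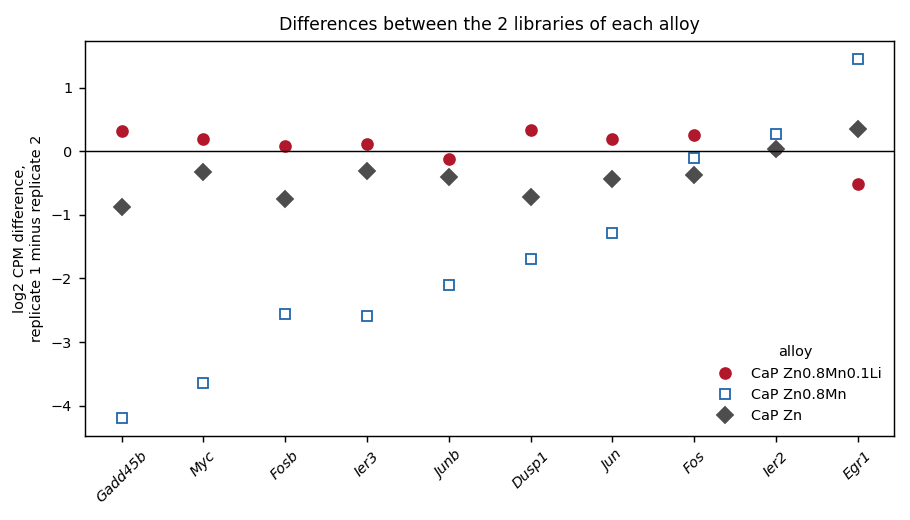
Log2 CPM of replicate 1 minus replicate 2 for each member on CaP Zn0.8Mn0.1Li (red circles), CaP Zn0.8Mn (open blue squares) and CaP Zn (grey diamonds), with genes ordered by their level in CaP Zn0.8Mn replicate 1 relative to the other 5 libraries. On CaP Zn0.8Mn and CaP Zn 8 of 10 genes are below 0, with Ier2 and Egr1 above, and on CaP Zn0.8Mn0.1Li 2 are below 0.

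Other genes of the pathway were taken from 7 lists, and edgeR called none of their tested members in any comparison, whether or not CaP Zn0.8Mn replicate 1 was included. For CaP Zn0.8Mn0.1Li relative to CaP Zn without that library, 23 of 37 other rapidly induced genes had a log2 fold change above 0 (median 0.050), beside 50% of all genes, with 4 at an unadjusted p under 0.05, beside 5.02% of all genes. Rgs1, which dampens G protein signaling, read 119 and 92.8 CPM on CaP Zn0.8Mn0.1Li and 62.9 and 84.8 CPM on CaP Zn (log2 fold change 0.52, SE 0.16, adjusted p = 0.884). Ier5l had a log2 fold change of 0.61 (adjusted p = 0.942) and the kinase gene Plk2 of 0.39 (adjusted p = 0.986). Klf2, a transcription factor that restrains macrophage activation, read 8.09 and 8.32 CPM on CaP Zn0.8Mn0.1Li and 11.2 and 11.2 CPM on CaP Zn (-0.45, SE 0.18, adjusted p = 0.958). Among 14 MAP kinase phosphatases, Sprouty-related inhibitors and other GADD45 genes, 10 were above 0 (median 0.13), and 2 passed an unadjusted p under 0.05. Gadd45a, a paralog of Gadd45b, read 32.1 and 29.7 CPM on CaP Zn0.8Mn0.1Li and 19.8 and 23.2 CPM on CaP Zn (0.52, SE 0.13, unadjusted p = 0.00077, adjusted p = 0.444), with both CaP Zn0.8Mn0.1Li libraries above both CaP Zn libraries. Gadd45g, the other paralog, read 18.4 and 11.9 CPM on CaP Zn0.8Mn0.1Li and 7.47 and 13.4 CPM on CaP Zn (0.55, SE 0.29, adjusted p = 0.981). Spred1, an inhibitor of RAS signaling, read 210 and 217 CPM on CaP Zn0.8Mn0.1Li and 281 and 249 CPM on CaP Zn (-0.31, SE 0.085, adjusted p = 0.597), and Dusp2, a nuclear phosphatase of MAP kinases, had -0.30 (adjusted p = 0.981). With all 6 libraries each of these genes had an adjusted p of 1, and the SE of Gadd45a was 0.96.

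The remaining lists were near 0 in the same comparison. Medians were 0.018 for 16 AP-1 and EGR partners (8 above 0), -0.013 for 31 MAP kinase and SRF genes upstream (13), -0.043 for 32 genes of AU-rich mRNA decay (11), 0.014 for 10 genes of the MYC network (5) and -0.012 for 25 MYC targets (12), against -9.6e-05 for all genes. The libraries did not overlap in 12 of the 32 AU-rich decay genes, with 10 lower and 2 higher on CaP Zn0.8Mn0.1Li, where 16.8% and 16.7% of all genes were. In that list Exosc3, an exosome subunit, had a log2 fold change of -0.30 (SE 0.12, adjusted p = 0.967), the RNA helicase gene Ddx6 of -0.20 and the deadenylase gene Parn of -0.19. Zfp36, which encodes tristetraprolin, the decay factor that binds ATTTA-type motifs, read 189 and 181 CPM on CaP Zn0.8Mn0.1Li and 134 and 175 CPM on CaP Zn (0.27, SE 0.11, adjusted p = 0.967). Among the AP-1 and EGR partners Jund, a further JUN family gene, had 0.24 (SE 0.12, adjusted p = 0.967), Atf3 0.24, Mafk 0.22 and Maff -0.18. Upstream, the kinase gene Rps6ka5 had -0.26, the SRF partner gene Elk3 -0.25, Mapk3, the ERK1 kinase gene, 0.18 and the RAF kinase gene Araf 0.15. In the MYC network Mxd4, a repressor that competes with MYC for MAX, had -0.33 (SE 0.13, adjusted p = 0.967), Max itself 0.14, Mycn -0.14 and Mxi1 -0.061. Among MYC targets Odc1 had 0.25, Wdr12 -0.19, Npm1 -0.14 and Pak1ip1 -0.13. Adjusted p was 1 for each of these with 6 libraries.

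In CaP Zn0.8Mn replicate 1, the lists, chosen with earlier results of these data known, were spread in other ways. The members' median log2 ratio to the mean of the other 5 libraries was -1.80, against -0.0043 for all genes. It was -0.92 for other rapidly induced genes, with 17 of 37 over 2-fold lower and 4 over 2-fold higher, beside 18.2% and 15.4% of all genes. It was -1.15 for the phosphatases and GADD45 genes, with 7 of 14 over 2-fold lower. Gadd45g read 0.264 CPM there, from 4 counts, against 7.47 to 18.4 CPM, and Gadd45a read 2.18 CPM against 19.8 to 32.1, so all 3 GADD45 mRNAs were lowest in this library. Upstream, the median was 0.35, with 20 of 31 genes above all other libraries and 8 below all, beside 42% and 41.9% of all genes. It was 0.15 for the AU-rich decay genes, within which Zfp36 read 20.2 CPM against 134 to 189 CPM. It was -0.58 for the AP-1 and EGR partners, -0.44 for the MYC network and -0.40 for MYC targets.

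**Figure D5:**
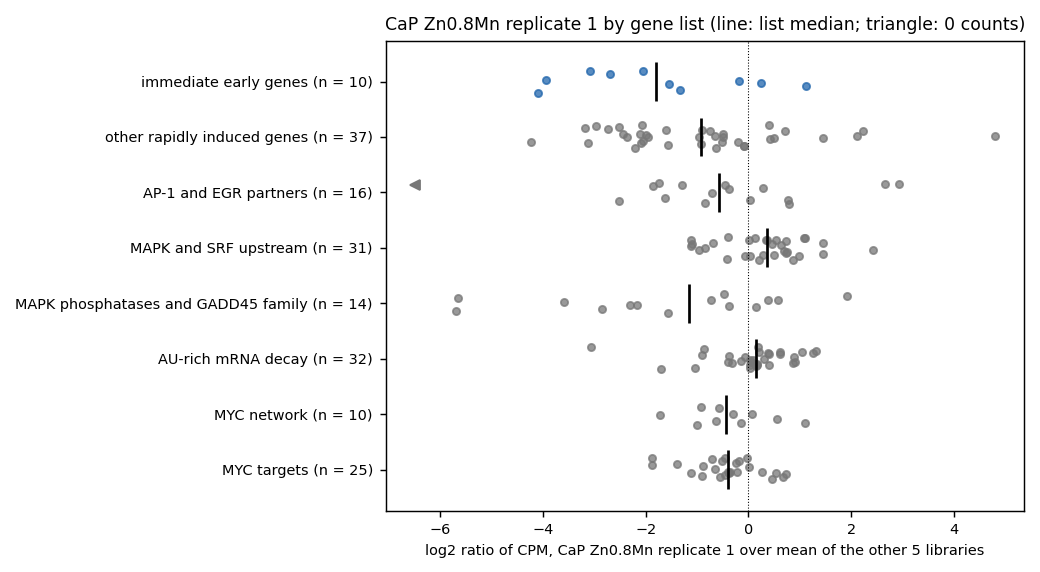
Log2 ratio of CPM in CaP Zn0.8Mn replicate 1 over the mean of the other 5 libraries for each gene of the members' list (blue) and the 7 other lists (grey), with a line at each list's median and a triangle for 1 gene at 0 counts. The members' median is -1.80, the lowest of the 8 lists, and the median of the genes upstream is 0.35. All 8 lists were chosen with earlier results of these data known, so their order is only descriptive.

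The genes whose profile was most like the members' mean over the 6 libraries were Hmox1, Atp5d, Ap2s1, Uqcrh and Rplp2, among 7293 genes of at least 20 CPM. Likeness was the root mean square difference of log2 CPM centred on each gene's mean, which was 0.036 for Hmox1 and 0.068 for Rplp2. Hmox1, heme oxygenase 1, read 222 and 209 CPM on CaP Zn0.8Mn0.1Li, 62.7 and 190 CPM on CaP Zn0.8Mn and 178 and 213 CPM on CaP Zn. Single members lay farther from their own mean profile, from 0.149 for Jun and 0.163 for Junb to 0.911 for Gadd45b and 1.10 for Egr1. Likeness over the 5 libraries other than CaP Zn0.8Mn replicate 1 was added after seeing the data. None of Hmox1, Atp5d, Ap2s1, Uqcrh and Rplp2 was then among the 5 nearest genes. They ranked 11, 70, 53, 93 and 131 of 7293, at distances from 0.040 for Hmox1 to 0.068 for Rplp2. These genes were picked on values that include the same 5 libraries, so small distances had to follow and are no separate check.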

How the data were processed

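Polyadenylated RNA of 6 libraries was measured, 2 per alloy, grouped by the treatment label with replicate numbers from the titles. The authors deposited whole-number read counts per gene and FPKM values (counts per gene length and library size); the counting and alignment tools were not given in the sources used here. Build mm9 is named in the submitters' processing notes, but 98.3% of matched genes, and 9 of the 10 members, have the start and end of GRCm38 (GENCODE M21; Dusp1 differs at its end), and the conflict remains. From the counts, edgeR 4.0.16 in R 4.3.3 (TMM, filterByExpr, robust quasi-likelihood, two-sided, Benjamini-Hochberg over 13156 genes) fitted group means to all 6 libraries (3 residual degrees of freedom), and to 5 without CaP Zn0.8Mn replicate 1 (2), where the lone CaP Zn0.8Mn library is assumed to vary like the others. DESeq2 1.42.0 and limma 3.58.1 were alternatives. The edgeR test was also run on simulated counts with less spread than all 6 libraries showed and with no library apart. That run therefore does not show the power of the fit to all 6 libraries. Intervals are 95%. Values per library are TMM-scaled CPM, except those of the cell type markers, which are CPM from library totals without TMM factors. FPKM is used between genes. Depth of each library is given as counts, and the floor of 3 counts covers counting error only. The tables hold 0 columns of other samples. The members and lists were chosen with earlier results of these data known. All 10 members were named; from each other list, called genes and the 4 genes (5 CPM or more) with the greatest difference in either direction of CaP Zn0.8Mn0.1Li over CaP Zn without CaP Zn0.8Mn replicate 1; and the 5 genes of at least 20 CPM most like the members' mean profile. Other genes named are marker, family or overlapping genes outside this rule.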

Additional observations from a re-analysis of the deposited data

How the results depend on the processing

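With all 6 libraries, none of the settings tried called a member. Of 651 member values over 22 alternatives, 575 had the direction and the side of the threshold reported and 60 the opposite direction, 49 of these without CaP Zn0.8Mn replicate 1. None of the reversed values was called. Without CaP Zn0.8Mn replicate 2, 16 member values passed, 8 of 10 members in each comparison with CaP Zn0.8Mn, beside 7808 and 8096 genes in all. Replicate 1 then stands for that alloy, and is assumed to vary like the others. Leaving out each library in turn, with the 4-library fit named below, genes called ranged from 0 to 47 (CaP Zn0.8Mn0.1Li over CaP Zn), 0 to 7808 (CaP Zn0.8Mn over CaP Zn) and 0 to 8096 (CaP Zn0.8Mn0.1Li over CaP Zn0.8Mn), and members called from 0 to 8 in both comparisons with CaP Zn0.8Mn. Gapdh was the 1 gene called in both comparisons with CaP Zn0.8Mn by DESeq2 and by edgeR with no filter. Without CaP Zn0.8Mn replicate 1, edgeR called 2 in each of these, Gm10123 with Rpl7a-ps5 and Gm10123 with mt-Rnr2; these 4 names were chosen after their values were seen. On those 5 libraries the genes called, in the order CaP Zn0.8Mn0.1Li over CaP Zn, CaP Zn0.8Mn over CaP Zn and CaP Zn0.8Mn0.1Li over CaP Zn0.8Mn, were 12, 5 and 3 with DESeq2, 0, 3 and 3 with limma-voom, 8, 6 and 6 with the replicate block and 0, 1 and 2 with library totals only. A fit without CaP Zn replicate 1 as well, chosen after seeing the data, called 47, 43 and 40, with 0 members. 

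Single values of opposite direction were as follows, on the log2 scale, and the cause was not tested. Fos, CaP Zn0.8Mn over CaP Zn, was -0.0027 with library totals only and -0.011 with no filter, and Ier3, CaP Zn0.8Mn0.1Li over CaP Zn, was 0.049 with the replicate block. Without CaP Zn0.8Mn replicate 1, values are given with DESeq2, limma-voom, the replicate block and library totals only, in that order. For CaP Zn0.8Mn over CaP Zn, Jun was 0.071, 0.094, 0.016 and 0.012, Junb was 0.14, 0.15, 0.024 and 0.082, Egr1 was -0.53, -0.53, -0.57 and -0.60, Ier2 was -0.077, -0.079, -0.061 and -0.14, Dusp1 was 0.38, 0.45, 0.31 and 0.33 and Gadd45b was 0.29, 0.35, 0.19 and 0.24. For CaP Zn0.8Mn0.1Li over CaP Zn0.8Mn, Egr1 was 0.26, 0.23, 0.29 and 0.28, Dusp1 was -0.050, -0.059 and -0.028 (DESeq2, limma-voom and library totals only) and Ier2 was 0.0029 (library totals only). With libraries left out, the ranges for CaP Zn0.8Mn0.1Li over CaP Zn were Ier3 -0.16 to 0.15, Fosb -0.075 to 0.68, Junb -0.042 to 0.36, Gadd45b -0.035 to 0.85, Atf3 -0.056 to 0.60 and Mafk -0.026 to 0.51. With libraries left out, the ranges for CaP Zn0.8Mn over CaP Zn were Jun -1.22 to 0.072, Junb -1.98 to 0.14, Egr1 -0.53 to 0.91, Ier2 -0.078 to 0.19, Dusp1 -1.32 to 0.39, Gadd45b -3.91 to 0.30 and Fos -0.15 to 0.23. With libraries left out, the ranges for CaP Zn0.8Mn0.1Li over CaP Zn0.8Mn were Egr1 -1.19 to 0.26 and Dusp1 -0.051 to 1.65. 

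Whether replicate numbers pair the libraries across alloys was not settled. Deviations of same-numbered libraries correlated across genes at r = -0.094 (CaP Zn0.8Mn0.1Li with CaP Zn0.8Mn), -0.15 (CaP Zn0.8Mn0.1Li with CaP Zn) and 0.25 (CaP Zn0.8Mn with CaP Zn). With so few libraries per alloy, and CaP Zn0.8Mn replicate 1 unlike the rest, these values can neither show nor exclude a shared batch. The replicate block on 6 libraries called 0 members and 0, 0 and 0 genes. On the 5 libraries Gadd45b, Fosb and Dusp1 had the widest intervals in each comparison. With all 6 libraries, the 5 counts of Fosb in CaP Zn0.8Mn replicate 1 limit its value.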
